A study of Homo sapiens with 11 samples.

Results

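SPOCK1 and 9 other genes of proteoglycan core proteins at the cell surface or in the matrix (VCAN, BGN, HSPG2, SRGN, SDC1, SDC2, SDC4, GPC1 and GPC4) were examined in stable transfectants of lung adenocarcinoma cells. The 10 genes were chosen by name, with their values on these arrays already known, and every probe that the array holds for them was taken, which gave 13 of 42405 probes and 10 of 20249 genes named through RefSeq. RNA was hybridised in one colour to 11 Agilent human expression arrays. Cells of the established human lines A549 and HCC827 had been infected with the retroviral vector pMXs-Neo, either empty (mock) or carrying FLAG-tagged wild-type TRIM58 (TRIM58-WT), a ubiquitin ligase of the tripartite motif family, and all groups had been selected with G418. A549 had 3 mock replicates on 4 arrays, of which 1-1 and 1-2 carried the same control cell and were averaged, and 3 TRIM58-WT replicates. HCC827 had 2 mock and 2 TRIM58-WT replicates. According to the methods, clones were isolated after selection, and the study's legend of a growth assay speaks of clones for A549 but of crude transfectants for HCC827. Whether the arrays carried those same cells, and whether each A549 replicate is a clone of its own, is not given in the sources used here, so in A549 the group and the clone cannot be told apart.

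Proteoglycans are proteins that carry long sulfated sugar chains, the glycosaminoglycans, mainly heparan sulfate, chondroitin sulfate and dermatan sulfate. Syndecans span the plasma membrane and glypicans are anchored to it by a lipid, and both bind growth factors and adhesion proteins through their chains. Versican, biglycan, perlecan and the testican family, to which SPOCK1 belongs, are secreted into the extracellular matrix or the basement membrane, whereas serglycin is packed into secretory granules. In the lung, heparan sulfate proteoglycans are part of the basement membrane under the alveolar epithelium.

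Promoter sequences are shown for the 4 members with a promoter entry in RefSeq (assembly GRCh38.p14) that changed within HCC827 or differed between both lines in the tests described further on. Each line gives the 250 bases before the annotated start, 5′ to 3′ on the strand of the gene, and capitals mark the GC box, GGGCGG or its complement CCGCCC.
HSPG2, chr1:21937311-21937560, minus strand: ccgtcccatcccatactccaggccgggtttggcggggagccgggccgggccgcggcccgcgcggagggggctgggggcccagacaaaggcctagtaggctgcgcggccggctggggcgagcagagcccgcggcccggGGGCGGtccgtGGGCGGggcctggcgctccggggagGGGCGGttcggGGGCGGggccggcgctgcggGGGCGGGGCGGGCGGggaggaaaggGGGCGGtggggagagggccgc
GPC1, chr2:240435413-240435662, plus strand: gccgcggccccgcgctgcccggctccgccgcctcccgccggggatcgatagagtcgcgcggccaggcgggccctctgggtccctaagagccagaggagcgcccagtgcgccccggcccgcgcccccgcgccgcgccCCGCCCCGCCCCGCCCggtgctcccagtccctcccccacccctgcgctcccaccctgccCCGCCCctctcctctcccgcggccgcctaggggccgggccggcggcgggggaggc
VCAN, chr5:83471494-83471743, plus strand: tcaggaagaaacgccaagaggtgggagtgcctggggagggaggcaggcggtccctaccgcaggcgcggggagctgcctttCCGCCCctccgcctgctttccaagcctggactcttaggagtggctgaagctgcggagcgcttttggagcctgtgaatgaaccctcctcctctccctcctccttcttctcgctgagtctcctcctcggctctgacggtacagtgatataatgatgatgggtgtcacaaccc
SDC4, chr20:45348425-45348674, minus strand: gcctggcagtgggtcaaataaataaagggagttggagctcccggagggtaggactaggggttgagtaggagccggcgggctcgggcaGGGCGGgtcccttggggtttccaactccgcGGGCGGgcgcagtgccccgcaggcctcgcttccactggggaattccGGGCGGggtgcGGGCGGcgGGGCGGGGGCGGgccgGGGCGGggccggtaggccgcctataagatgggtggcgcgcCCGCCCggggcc
The promoter of HSPG2, the gene of perlecan, held 8 GC boxes at a GC content of 82.8%, and that of GPC1, the gene of glypican-1, held 4 at 84.0%. SDC4, the gene of syndecan-4, had 8 GC boxes at 73.6%. The promoter of VCAN, the gene of versican, stood apart from these with a single GC box, a GC content of 60.8% and 12 CpG dinucleotides, against 33 for HSPG2, 36 for GPC1 and 26 for SDC4. Of all 35116 promoters of the same length, 42.6% held a GC box, with the motif searched on both strands and overlapping matches counted, and the medians were 11 CpG dinucleotides and a GC content of 58%. Of the 10 members, 7 had an entry, and none of their windows held TATAAA or CCAAT on either strand, which were present in 10.7% and 32% of all promoters. These matches are a description of letters and say nothing on which factors bind.

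Levels are log2 signals relative to the 75th percentile of their own array, so a value of 0 is that percentile. A probe that was not well above background on an array has only an upper bound there, and its printed value is close to noise. The share of probes with a signal clearly over background was 40.1% to 46.5% on 10 arrays and higher on A549 TRIM58-WT array 1, and no spot was saturated. The 75th percentile of the signal was 60.3 on A549 mock array 3 and 62.5 and 56.6 on A549 TRIM58-WT arrays 2 and 3. It was 90.5 to 125 on the other arrays, so the scaling raised these dimmer arrays relative to the rest. Whether this has a part in their likeness was not tested. Before the results, 3 features of the arrays need to be stated. The probe of TRIM58 itself, A_33_P3249414, was well above background only in A549 mock replicate 3 (-0.71) and lay between -5.64 and -4.63 on the other 10 arrays, including every array labelled TRIM58-WT. Whether this probe lies within the coding sequence carried by the vector was not analysed here, so every direction follows the group labels alone. In A549, mock replicate 3 differed from TRIM58-WT replicates 2 and 3 with an SD of 0.55 over probes, and from the other mock arrays with an SD of 0.60 to 0.71. TRIM58-WT replicates 2 and 3 differed by an SD of only 0.20, less than the 0.25 between both arrays of the same control cell. The arrays lay on 2 slides, with both groups of A549 on each and all of HCC827 on slide 1.

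SPOCK1, on chromosome 5, encodes testican-1, a secreted proteoglycan with heparan sulfate and chondroitin sulfate chains that is known for its part in matrix remodelling. It was at background on 3 of the 4 A549 mock arrays and above it on all others. Its single probe, A_24_P354689, read -4.14, -4.08 and -4.42 on A549 mock arrays 1-1, 1-2 and 2, none of them well above background, and -0.40 on mock array 3, which was above background. The 3 A549 TRIM58-WT arrays read 1.56, 2.00 and 2.17. HCC827 read 0.38 and 0.45 on the mock arrays and 1.34 and 1.03 on the TRIM58-WT arrays. SPOCK1 was thus higher on every TRIM58-WT array than on any mock array, in either line, and mock replicate 3 stood between the other A549 mock arrays and HCC827 mock. The order of the group means was A549 TRIM58-WT (1.91 ± 0.31, SD, n = 3), HCC827 TRIM58-WT (1.19 ± 0.22, n = 2), HCC827 mock (0.42 ± 0.05, n = 2) and A549 mock (-2.98 ± 2.23, n = 3), and no neighbouring groups in this order overlapped.

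In A549 the TRIM58-WT minus mock difference of SPOCK1 was 4.89 ± 1.04 (SE) on the log2 scale. This contrast was known when the genes were chosen, so it is given as a description for every member and carries no test here. Because 3 of the 4 mock arrays were at background, its size rests in part on noise. On slide 1 both mock arrays were at background, and SPOCK1 was at least 25.2-fold higher on the TRIM58-WT array. Without mock replicate 3 every mock array left was at background, and it was at least 32.4-fold higher in TRIM58-WT. Both bounds are taken against the lowest signal well above background on the mock arrays. On slide 2, where 1 of 2 mock arrays was at background, the difference of the measured signals was 4.33. With slide as a block, and mock arrays 1-1 and 1-2 taken as separate samples, it was 4.93. Without mock replicate 1 or 2 or TRIM58-WT replicate 1, 2 or 3 it was 4.32, 4.17, 5.06, 4.84 and 4.76, and SPOCK1 did not reach the adjusted p under 0.05 that, with a change of at least 2-fold, makes a call here and that it reached with all replicates. The values in HCC827 and in both mock groups were also known when the genes were chosen. The tests of members in HCC827 and between the mock groups are therefore not independent of that choice. In HCC827 SPOCK1 differed by 0.77 ± 0.17, higher in both TRIM58-WT replicates than in both mock replicates, and did not pass after adjustment (limma, unadjusted p = 0.00764, adjusted p = 0.121). Whether the difference of SPOCK1 is unequal between the lines was not tested.

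**Figure D1:**
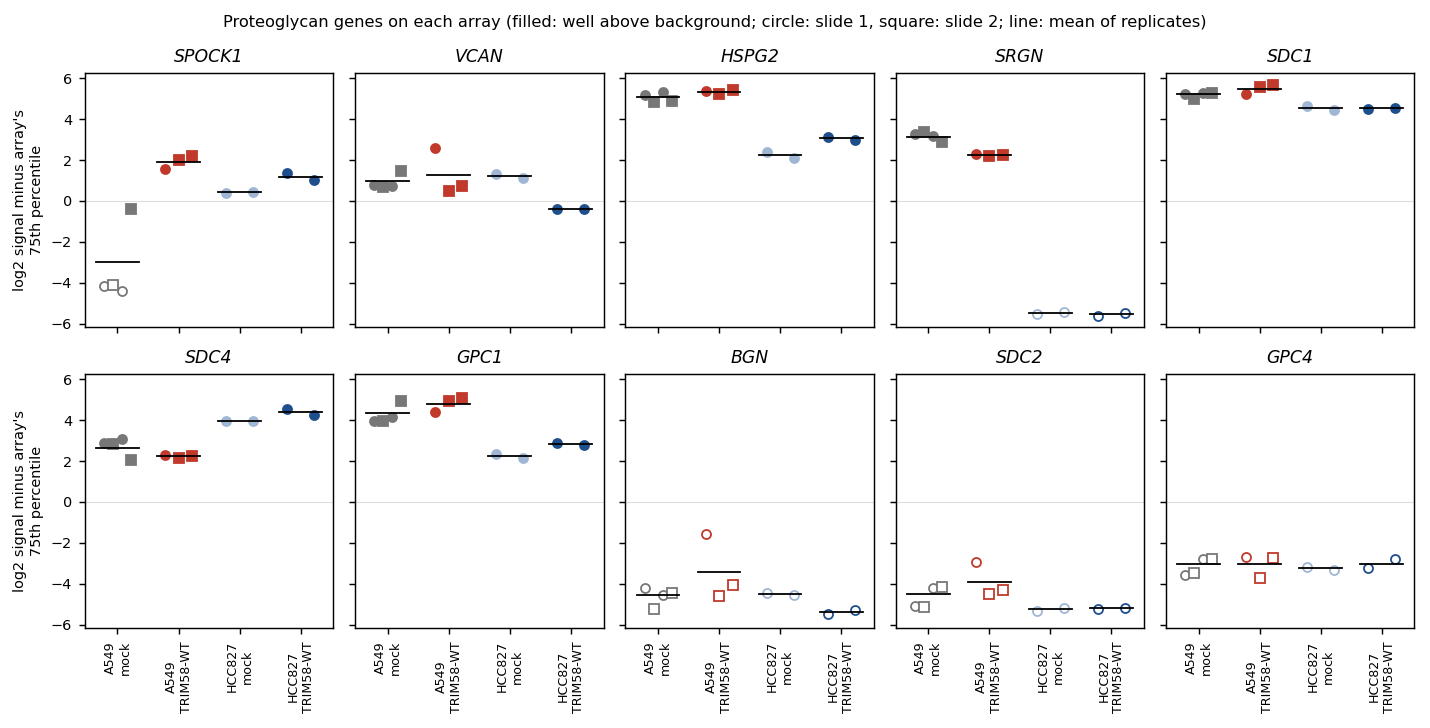
Level of each member on each of the 11 arrays, as log2 signal minus the 75th percentile of the array (vertical axis), by group (horizontal axis). Each symbol is an array, filled where the probe was well above background, circles for slide 1 and squares for slide 2, and the line is the mean of the replicates; for HSPG2 the brightest probe is shown. SPOCK1 lies from -4.42 to -0.40 in A549 mock and from 1.56 to 2.17 in A549 TRIM58-WT, SRGN is above background only in A549, and BGN, SDC2 and GPC4 are nowhere above background.

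VCAN, also on chromosome 5, encodes versican, a large chondroitin sulfate proteoglycan that binds hyaluronan. It fell in HCC827 labelled TRIM58-WT and had no common direction in A549. Probe A_23_P144959 read 1.30 and 1.13 on the HCC827 mock arrays, then -0.41 and -0.39 on the TRIM58-WT arrays, so the groups lay far apart. The difference was -1.61 ± 0.14 (SE), a level of 0.327 times that of mock (limma, adjusted p = 0.0360, n = 2 each). The call was lost when any 1 of the 4 replicates was left out, with differences from -1.69 to -1.53 and adjusted p from 0.0529 to 0.204. In A549 the mock arrays 1-1, 1-2, 2 and 3 read 0.78, 0.67, 0.71 and 1.45, and the TRIM58-WT arrays read 2.59, 0.50 and 0.72. Before scaling the signals of these mock arrays were 168, 163, 148 and 165, and those of the TRIM58-WT arrays were 583, 88.4 and 93.0. TRIM58-WT replicate 1 alone was high. Replicates 2 and 3 were below all mock arrays before scaling, but only replicate 2 after it. The difference of the scaled values was 0.31 ± 0.58. It was 1.85 on slide 1, which held TRIM58-WT replicate 1, and -0.45 on slide 2, and without TRIM58-WT replicate 1 it turned to -0.35. With the median instead of the 75th percentile as the reference level it was -0.06.

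HSPG2, on chromosome 1, encodes perlecan, a large heparan sulfate proteoglycan of basement membranes. Its level set the lines apart. The brightest probe, A_33_P3321657, read 5.16, 4.82, 5.33 and 4.88 on A549 mock arrays 1-1, 1-2, 2 and 3, against 2.38 and 2.10 in HCC827 mock. The A549 TRIM58-WT arrays read 5.36, 5.21 and 5.42 and the HCC827 TRIM58-WT arrays 3.14 and 2.99. A549 was above HCC827 on every array, and within HCC827 both TRIM58-WT arrays were above both mock arrays. Between the mock groups the difference, A549 minus HCC827, was 2.83 ± 0.21 (limma, adjusted p = 5.65e-04), or 7.09-fold. Within HCC827 the difference was 0.83 ± 0.16 and did not pass (limma, adjusted p = 0.108), and within A549 it was 0.26 ± 0.18. The other 3 probes of HSPG2 were dim. A_33_P3380612 was above background only on A549 TRIM58-WT array 1, and A_33_P3380618 and A_33_P3380625 on none. A_33_P3380625 read -2.70, -3.19 and -2.84 on the A549 TRIM58-WT arrays, above all 4 mock arrays (-5.05 to -3.95), which the brightest probe did not repeat.

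SRGN, on chromosome 10, encodes serglycin, the proteoglycan of secretory granules, best known from blood cells. It was measurable in A549 and not in HCC827. Probe A_23_P86653 read 3.27, 3.37, 3.16 and 2.89 on the A549 mock arrays and 2.31, 2.22 and 2.24 on the TRIM58-WT arrays, and between -5.61 and -5.45 on all 4 HCC827 arrays, none of them well above background. Between the mock groups SRGN was at least 82.0-fold higher in A549 (limma, adjusted p = 4.07e-05), a bound taken against the lowest signal well above background on the HCC827 mock arrays. Within A549 every TRIM58-WT array lay below every mock array, by -0.87 ± 0.17, which is less than 2-fold. The difference was -0.91 on slide 1 and -0.90 on slide 2. In HCC827 SRGN was not tested, since both groups were at background.

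Among the syndecans, SDC1 and SDC4 were well above background on all arrays and SDC2 on none. SDC1, on chromosome 2, encodes syndecan-1, the main syndecan of epithelia. Probe A_23_P16944 read 5.21, 4.96, 5.25 and 5.28 on the A549 mock arrays, 5.22, 5.55 and 5.68 in A549 TRIM58-WT, 4.64 and 4.45 in HCC827 mock, and 4.52 on both arrays of HCC827 TRIM58-WT. This was the most even member that could be measured. It differed by 0.28 ± 0.18 within A549, by -0.03 ± 0.14 within HCC827 (limma, adjusted p = 0.923), and by 0.66 ± 0.17 between the mock groups, where the adjusted p was 0.0278 by limma but the change was under 2-fold.

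SDC4, on chromosome 20, encodes syndecan-4, a broadly made syndecan of focal adhesions. Probe A_23_P109034 read 2.89, 2.82, 3.07 and 2.05 on the A549 mock arrays and 2.30, 2.16 and 2.23 in TRIM58-WT. HCC827 was higher, at 3.94 and 3.93 on mock arrays and at 4.54 and 4.25 on TRIM58-WT arrays. A549 mock was below HCC827 mock by -1.28 ± 0.33 (limma, adjusted p = 0.0310). That call was lost without A549 mock replicate 1 (-1.38), without A549 mock replicate 3 (-0.98, under 2-fold) and without HCC827 mock replicate 1 or 2 (-1.28 each), and on slide 1 alone the difference was -0.96. Within the lines SDC4 differed in opposite senses, by -0.43 ± 0.28 in A549, where mock replicate 3 lay below the TRIM58-WT arrays, and by 0.46 ± 0.16 in HCC827 (limma, adjusted p = 0.220). The difference between the lines in this respect was not tested. SDC2, on chromosome 8, encodes syndecan-2, which is typical of mesenchymal cells, and its probe A_33_P3371219 ranged from -5.32 to -2.93, the highest value being A549 TRIM58-WT array 1.

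Of the glypicans, GPC1, on chromosome 2, encodes glypican-1 and GPC4, on the X chromosome, encodes glypican-4. GPC1 was a bright gene with the same order of lines as HSPG2. Probe A_23_P209904 read 3.95, 3.95, 4.16 and 4.91 on the A549 mock arrays, 4.41, 4.93 and 5.09 in A549 TRIM58-WT, 2.33 and 2.16 in HCC827 mock, and 2.88 and 2.79 in HCC827 TRIM58-WT. Mock replicate 3 of A549 was again at the level of the TRIM58-WT arrays after scaling. Before scaling its signal was 1814, against 1509, 1592 and 1615 on mock arrays 1-1, 1-2 and 2 and 1906 to 2050 on the TRIM58-WT arrays. A549 mock exceeded HCC827 mock by 2.09 ± 0.32, or 4.27-fold (limma, adjusted p = 0.00564), a call that was lost only without HCC827 mock replicate 2 (2.01, adjusted p = 0.0514) among the replicates left out in turn. The difference was 0.47 ± 0.31 within A549 and 0.59 ± 0.14 within HCC827, where it did not pass (limma, adjusted p = 0.137). GPC4 was above background on no array, with values from -3.70 to -2.68 for probe A_23_P435407. The same held for BGN, on the X chromosome, which encodes biglycan, a small leucine-rich matrix proteoglycan. Its probe A_23_P34126 ranged from -5.46 to -1.57, the highest being A549 TRIM58-WT array 1, as for SDC2.

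Counted over the members, 7 of 10 were tested in A549, and 1 passed the call rule of an adjusted p under 0.05 with a change of at least 2-fold, SPOCK1, against 6.92% of the 16924 probes tested (3.49% higher and 3.43% lower). The replicates of both groups did not overlap for 2 members, SPOCK1 and SRGN, against 31% of the probes. Because the genes were chosen with this contrast known, nothing is read from these counts. In HCC827, 6 members were tested and 1 was called, VCAN, against 0.884% of 19563 probes (0.291% higher and 0.593% lower). The groups did not overlap for 5 of the 6, with SPOCK1, HSPG2, SDC4 and GPC1 higher and VCAN lower in TRIM58-WT, against 56.6% of the probes, and 5 had an unadjusted p under 0.05 against 20.3%. Between the mock groups 4 of 7 were called, HSPG2, SRGN and GPC1 higher in A549 and SDC4 lower, against 30.3% of 19505 probes (14.1% higher and 16.2% lower), and 6 of 7 did not overlap against 69.7%. SPOCK1 is a description in that comparison too, at -3.39 ± 1.26 for the measured signals, with 3 of the 4 A549 mock arrays at background. The median difference of the tested members was 0.28 in A549, 0.53 in HCC827 and 0.66 between the mock groups, beside medians over all probes of 0.06, 0.01 and -0.07. The comparisons within A549 and between the mock groups share the A549 mock arrays, and those within HCC827 and between the mock groups share the HCC827 mock arrays.

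**Figure D2:**
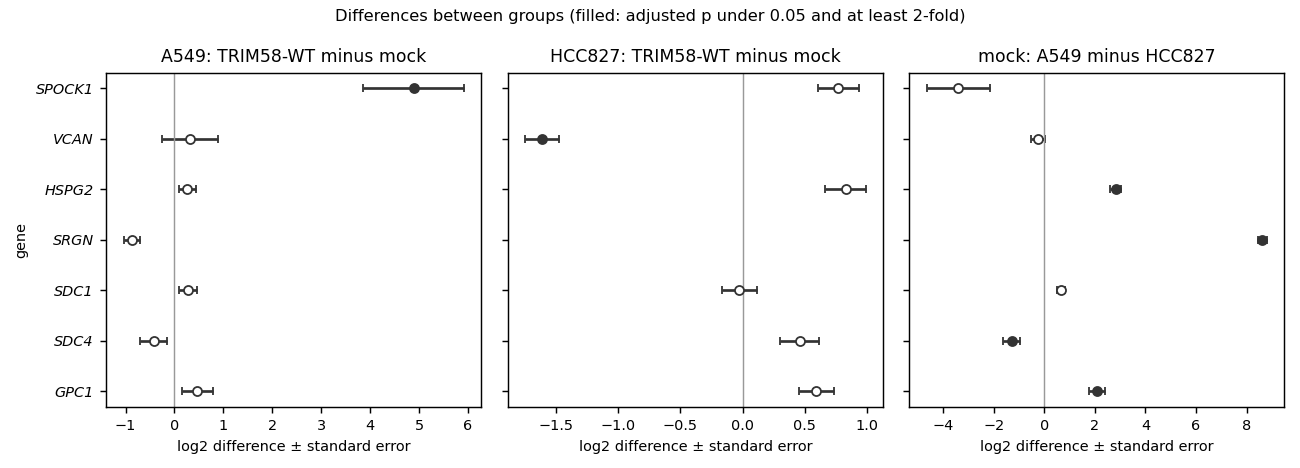
Log2 difference (horizontal axis, with its own scale in each panel; bars are ± 1 standard error from limma) of the tested members (vertical axis) within A549, within HCC827 and between both mock groups. Filled points had an adjusted p under 0.05 and a change of at least 2-fold, which holds for SPOCK1 in A549 (4.89), VCAN in HCC827 (-1.61), and HSPG2, SRGN, SDC4 and GPC1 between the mock groups. The genes were chosen with these values known, so the filled point in A549 is a description and no test. The point of SRGN between the mock groups is drawn at the measured signals although HCC827 was at background, as are those of SPOCK1 in both panels with A549 mock, where 3 of 4 mock arrays were at background.

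The genes whose levels over the 10 replicates were most like those of SPOCK1 were sought among 16597 probes with a symbol. The Pearson correlation was highest for TGFB2-AS1 (0.988), an antisense RNA at the TGFB2 locus, followed by PODNL1 (0.988), a small leucine-rich repeat protein related to podocan, NXN (0.986), the gene of nucleoredoxin, FHOD3 (0.985), a formin that assembles actin, and PHLDB1 (0.983). In all, 117 probes exceeded 0.9. On the A549 mock arrays PODNL1 was at background on all 4, NXN and SPOCK1 on 3 and PHLDB1 on 2, so that part of this likeness lies between values close to noise, whereas TGFB2-AS1 and FHOD3 were above background on every array. These values describe 10 points that share lines and slides, and the probes were picked as the highest. FHOD3, for example, read -2.68, -2.74, -2.40 and -0.15 on the A549 mock arrays and 2.12, 2.41 and 2.32 in TRIM58-WT, and NXN read -4.54, -5.13 and -5.08, all at background, and -1.13, above it, against -0.63, 0.29 and 0.17. Both repeated the intermediate place of mock replicate 3. For the other members measured above background the correlations with SPOCK1 over the 10 replicates lay between -0.37 for SRGN and 0.02 for SDC4. These values include the difference in level between the lines. Within A549 and HCC827, HSPG2 (0.26 and 0.83) and GPC1 (0.47 and 0.59) differed in the same sense as SPOCK1, uncalled. VCAN, SDC1 and SDC4 had opposite signs in the 2 lines. BGN, SDC2 and GPC4, at background, were not compared with SPOCK1. Over the 6 A549 replicates alone the correlation was -0.97 for SRGN, -0.88 for SDC4, 0.82 for GPC1 and 0.72 for SDC1. These values describe 2 groups of 3, with SPOCK1 at background on 3 of the 4 mock arrays.

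**Figure D3:**
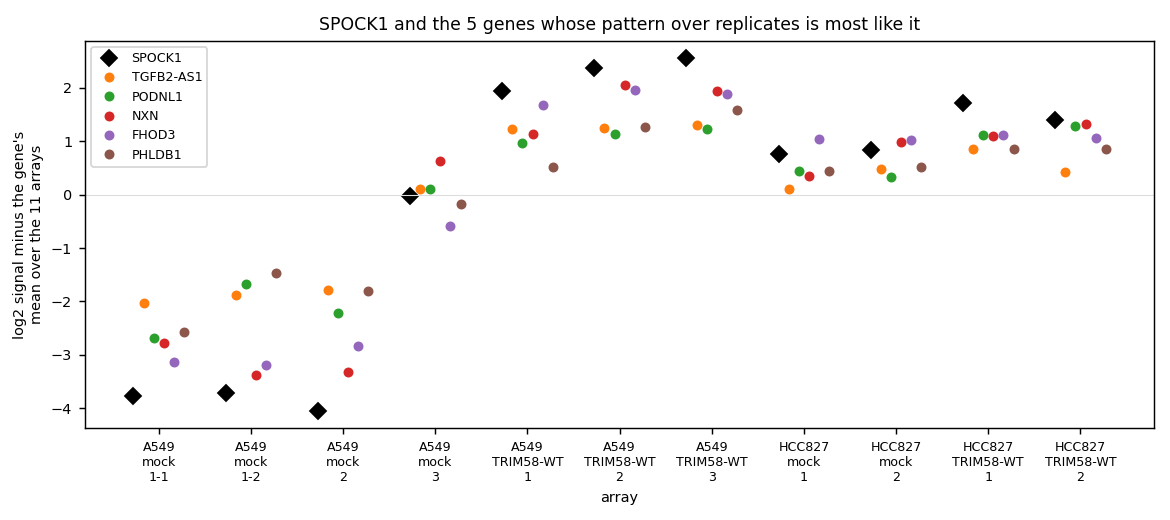
SPOCK1 (black diamonds) and the 5 genes with the highest Pearson correlation to it over the replicates, as log2 signal minus the mean of each gene over the 11 arrays (vertical axis), on each array (horizontal axis). Mock array 3 of A549 lies between the other A549 mock arrays, which are the lowest for every gene shown and at background for SPOCK1, NXN and PODNL1, and the TRIM58-WT arrays.

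Some markers of cell types also differed between TRIM58-WT and mock in A549. The marker lists were chosen with earlier results of these data known, so their counts are a description. Of 14 epithelial markers, 10 to 12 were well above background on the mock arrays and 7 to 9 on the TRIM58-WT arrays, with summed linear levels relative to the 75th percentile of 1557 to 2330 and 1104 to 1726. Of the 10 that were tested, 7 were called lower, against 4.06% of all genes, among them EPCAM, JUP, CLDN4 and ELF3. KRT19, an epithelial keratin also among these 7, was above background on no A549 TRIM58-WT array and at least 723-fold lower there. Of 15 mesenchymal markers, 5 to 6 and 7 to 9 were above background, with sums of 179 to 271 and 146 to 418. Of the 7 tested, COL1A1 and CDH2 were called higher and S100A4 lower, against 3.88% and 4.06% of all genes. In HCC827 all 14 epithelial markers were above background on every array, with sums of 1726 to 1789 in mock and 1987 to 2195 in TRIM58-WT, and the mesenchymal sums were 3.57 to 4.27 and 6.07 to 8.60. Such sums rest mostly on the brightest genes. In HCC827 the brightest mesenchymal marker was VIM, at 1.05 ± 0.32 (SD, n = 2) in mock and 2.48 ± 0.40 in TRIM58-WT, whereas CDH2 was above background on no TRIM58-WT array. None of the epithelial markers was called there by limma (4 of 14 at an unadjusted p under 0.05), and of 5 mesenchymal markers tested TWIST1, a mesenchymal transcription factor, was called lower, against 0.762% of all genes. The marker calls were not followed over other ways of processing. In HCC827 no probe at all was called without a filter, with the methods' t-test or with the replicate block, so the call of TWIST1 was lost there. Of 10 lung lineage markers, 3 to 6 were above background in A549 mock and 2 to 6 in TRIM58-WT, with sums of 4.27 to 4.70 and 6.78 to 8.05 and ABCA3, a lipid transporter, called higher of 2 tested. In HCC827 6 to 7 and 6 to 8 were above background, but their sums were 64.6 to 75.1 in mock and 29.8 to 36.9 in TRIM58-WT. None of the 6 tested there was called by limma, with 4 at an unadjusted p under 0.05: SFTPA2 at -2.08, NAPSA at -1.30 and NKX2-1 at -1.07, which were lower in TRIM58-WT, and ABCA3 at 0.78. NKX2-1 and SFTPB were above background on no A549 array. Of 8 immune and endothelial markers, no more than 3 were above background on any array, CD14 was called lower in A549 TRIM58-WT of 2 tested, and CD3E, PECAM1, CDH5, VWF and KDR were on none. Between the mock groups 11 of 14 epithelial markers were called, 9 lower in A549 with ESRP2, CLDN7, CLDN4, ESRP1 and CLDN3 the farthest apart, and 2 higher, against 16.4% and 15.5% of all genes. All 5 called of 6 mesenchymal markers, S100A4, VIM, CDH2, ACTA2 and ZEB1, were higher in A549, the 3 called of 6 lung lineage markers, NKX2-1, NAPSA and SFTPA2, were lower, and CD14 was higher. The part of these genes in the levels of SPOCK1, SRGN, VCAN and HPSE was not tested, and in bulk RNA fewer cells of a type and less RNA per cell cannot be told apart.

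Other genes of the pathway were taken by function, as further core proteins and as the enzymes and transporters that build the sugar chains, with 1 probe a gene, the brightest. These lists too were chosen with earlier results of these data known, so their counts are a description. In A549, 1 of 9 other core proteins tested (35 on the array), 1 of 15 linker and precursor genes, 1 of 10 heparan sulfate enzymes and 3 of 11 chondroitin and dermatan sulfate enzymes were called, against 7.94% of all genes (3.88% higher and 4.06% lower). GPC6, another glypican, was called higher in TRIM58-WT by 1.68 ± 0.37, and its second probe read 1.81 ± 0.40. DSE, the epimerase that turns chondroitin into dermatan sulfate, was called higher by 2.25 ± 0.34 and CHST7, a chondroitin 6-O-sulfotransferase, by 1.40 ± 0.17. CSGALNACT1, which starts chondroitin chains, was called lower by -1.64 ± 0.20 and on a second probe by -1.58 ± 0.17, and HS3ST1, a heparan sulfate 3-O-sulfotransferase, by -1.38 ± 0.19. SLC26A2, the sulfate transporter, was called higher by 1.15 ± 0.26. The called genes of the chondroitin and dermatan sulfate group thus went in both directions. Of the 6 calls, none held on the brightest probe without mock replicate 1 or without TRIM58-WT replicate 3, where CSGALNACT1 was still called on its second probe. With other replicates left out, 2 held without mock replicate 2 or TRIM58-WT replicate 2, 5 without mock replicate 3, and all 6 without TRIM58-WT replicate 1. All 6 also held with slide as a block, in a fit that took both arrays of the same control cell as separate samples. The closest relative of SPOCK1 that was measured, SPOCK2, read -0.09 ± 0.32 (SD, n = 3) in A549 mock and 0.12 ± 0.19 in TRIM58-WT.

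In HCC827 a single gene of these 4 groups was called, against 1.1% of all genes (0.336% higher and 0.762% lower). HPSE, the gene of heparanase, which cuts heparan sulfate chains, fell by 1.57 on the log2 scale (SE 0.13, limma, adjusted p = 0.0360), from 1.46 ± 0.08 (SD, n = 2) in mock to -0.11 ± 0.05 in TRIM58-WT. As for VCAN, the call was lost when any 1 replicate was left out, with adjusted p from 0.0530 to 0.206. None of 9 other core proteins, 15 linker and precursor genes and 12 chondroitin and dermatan sulfate enzymes was called by limma or the methods' t-test, at 5, 4 and 3 genes with an unadjusted p under 0.05 by limma, and the median differences of these groups were 0.25, 0.07 and 0.35. This depends on the scaling and the filter. With the median as the reference level, and likewise with only probes above background on every array, 4 genes were called, HPSE, THBD, CHST11 and DSE, with quantile scaling the first 3 of these, and with all 4 groups in one fit HPSE and CHST11. As reported here THBD differed by 1.38 ± 0.16 (adjusted p = 0.0546), CHST11 by 1.46 ± 0.16 (adjusted p = 0.0522) and DSE by 1.28 ± 0.18 (adjusted p = 0.0685), all higher in both TRIM58-WT replicates than in both mock replicates. In A549 HPSE was above background on no array.

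Between the mock groups, the largest differences within these 4 groups of genes were in single enzymes of heparan sulfate and chondroitin sulfate, and that of the member SRGN was larger. Against 32% of all genes (15.5% higher and 16.4% lower), 3 of 9 other core proteins, 5 of 15 linker and precursor genes, 4 of 13 heparan sulfate enzymes and 6 of 12 chondroitin and dermatan sulfate enzymes were called. COL18A1, CD44 and THBD, a collagen and 2 membrane proteins that can carry glycosaminoglycans, were higher in A549 by 2.44 ± 0.33, 1.45 ± 0.17 and 2.37 ± 0.32. SULF2, which removes sulfate from heparan sulfate outside the cell, was at least 36.1-fold higher in A549 and at background in HCC827 (limma, adjusted p = 2.69e-04). HS6ST2, a heparan sulfate 6-O-sulfotransferase, was at least 54.6-fold lower in A549 (adjusted p = 4.50e-04) and HPSE at least 19.8-fold lower (adjusted p = 1.23e-04), both at background there. HS6ST2 and SULF2, which place and remove 6-O-sulfate, were thus high in opposite lines. HS6ST1, another 6-O-sulfotransferase, was above background on every array of both lines, at 1.36 in A549 mock and 0.64 in HCC827 mock, and was not called. GLCE, the epimerase of heparan sulfate, was higher in A549 by 1.45 ± 0.43 (adjusted p = 0.0464), and HS2ST1, a 2-O-sulfotransferase, was called lower only on the dimmer of its probes (-1.17 against -0.89). The call of GLCE was lost with quantile or median scaling, normexp background correction, no filter or the methods' t-test. It was also lost without A549 mock replicate 1 or 2. CSGALNACT1 was at least 69.8-fold higher in A549 (adjusted p = 4.55e-05), and CHSY1, which extends chondroitin chains, was higher by 1.97 ± 0.19. The chondroitin sulfotransferases CHST11, CHST3 and CHST15 were higher in A549 by 1.36 ± 0.22, 1.35 ± 0.33 and 1.22 ± 0.18. With normexp these calls were lost. That of CHST3 was also lost with the deposited log2 table, with the methods' t-test and without A549 mock replicate 1. DSEL, a relative of DSE, was at least 6.30-fold lower in A549 (adjusted p = 7.61e-04). In the linker group BPNT2, UGDH, SLC26A2 and PXYLP1 were higher in A549, by 2.39, 2.01, 1.54 and 1.14, and PAPSS1, which makes the sulfate donor, was lower by -1.09 ± 0.24. The call of PAPSS1 was lost with normexp, no filter, the methods' t-test, slide 1 alone or without A549 mock replicate 3.

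**Figure D4:**
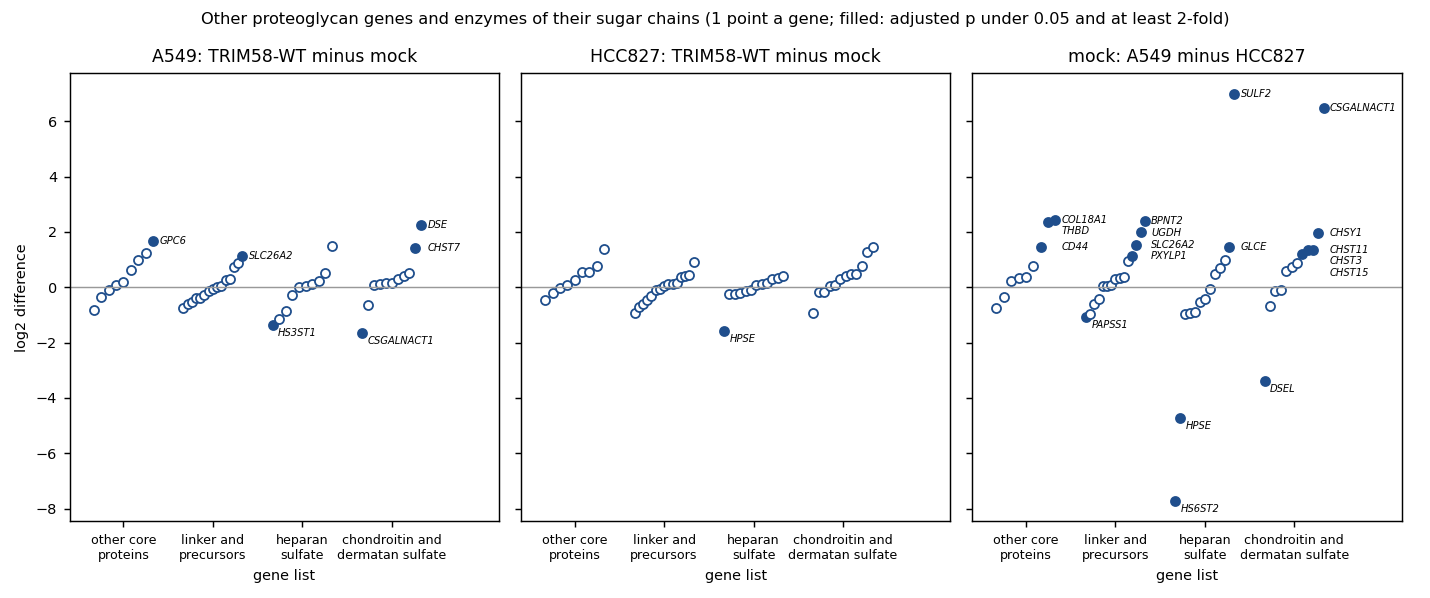
Log2 difference (vertical axis) of other core proteins and of enzymes and transporters of the sugar chains (horizontal axis, 4 gene lists, ordered by size within a list), 1 point a gene, within A549, within HCC827 and between both mock groups. Filled, named points had an adjusted p under 0.05 and a change of at least 2-fold: 6 genes in A549, 1 in HCC827 and 18 between the mock groups, where SULF2, CSGALNACT1, HS6ST2, HPSE and DSEL are drawn at their measured signals although one line was at background.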

How the data were processed

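RNA of 11 samples was measured on Agilent 8 × 60k arrays. The authors deposited the scanner output, with an intensity for each spot (processed signal, background subtracted, Agilent Feature Extraction 11.5.1.1 per the file headers, 10.7 in the submitters' notes), and a table of log2 values; after a baseline for each probe, 95.5% of the deposited log2 values lay within 0.01 of those computed here. Flags of the scanner software (well above background, outlier, control) were used as given.

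Control and outlier spots were left out, spots of a probe were averaged, and log2 values were scaled by subtracting the 75th percentile array by array. A probe counted as above background when a share over 0.5 of its spots did, and was tested when this held on all arrays of 1 group or more in the comparison. Groups came from the labels. limma 3.58.1 (R 4.3.3) was fitted to the groups compared, with Benjamini-Hochberg adjustment over all probes tested. A call needed an adjusted p under 0.05 and a change of at least 2-fold, the study's thresholds; its methods name, for comparisons of groups in general, a t-test with unequal variances or a rank test, without saying which served for the arrays, and the former is the methods' t-test here. Nothing states how far the samples of a group were cultured apart, so p-values measure the spread between these samples. With a probe at background in a group, the fold is a bound against the lowest signal well above background.

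The members and gene lists were chosen with earlier results of these data known. The text names all members, TRIM58, the called genes of each list (up to 5 a comparison, the largest differences first) and the 5 genes most correlated with SPOCK1. SFTPB, SPOCK2, HS2ST1, HS6ST1, CHST15, the genes in HCC827 that only alternatives called, VIM and CDH2 in HCC827, the lung lineage markers of HCC827 and the immune and endothelial markers named as absent were added after their values were seen. Symbols and chromosomes came from RefSeq (27241 probes named). Alternatives were quantile or median scaling, normexp (offset 50), other filters, outlier spots kept, the deposited log2 table, the methods' t-test, one fit for all groups, replicate number or slide as a block, slide 1 alone, other uses of repeated arrays, and each replicate left out. The steps were tested on simulated data. Plots used Python 3.11.15 and matplotlib 3.10.9.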

Additional observations from a re-analysis of the deposited data

How the results depend on the processing

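The number of members called in A549, a description since the genes were chosen with this contrast known, was 1 (SPOCK1). It was 0 with only probes above background on every array, where SPOCK1 was not tested, with the methods' t-test and with TRIM58-WT replicates 2 and 3 averaged, and 0 to 1 with a replicate left out. Without a filter the number was also 1, but the probe was A_33_P3380625 of HSPG2 in place of SPOCK1. In HCC827 the number was 1 (VCAN) and became 0 without a filter, with the methods' t-test, with all 4 groups in one fit, with the replicate block, and with any replicate left out (0 to 0); the cause was not tested. Without a filter, with the methods' t-test and with the replicate block, limma or the t-test called 0 of all probes in HCC827, at 4381, 1500 and 3850 probes with an unadjusted p under 0.05. Between the mock groups the number was 4, it was 2 with the methods' t-test (SRGN and HSPG2) and 2 to 4 with a replicate left out, and 3 to 5 otherwise.

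Signs turned for differences near 0. With the median in place of the 75th percentile, A549 differences became -0.058 for VCAN, -0.094 for SDC1 and -0.10 for HSPG2; this scaling moved the median of all probes by -0.37 and the share of higher calls from 50.5% to 25.6%. VCAN in A549 was -0.35 without TRIM58-WT replicate 1 (-0.35 to 0.70 with a replicate left out). SDC1 in HCC827 became 0.0068 with quantile scaling, 0.0035 with the median and 0.064 without mock replicate 1 (-0.12 to 0.064). Over all probes the calls numbered 1171 in A549 (24 to 2193 over the alternatives), 173 in HCC827 (0 to 633) and 5906 between the mock groups (3003 to 6799).

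Of the 6 calls among other genes of the pathway in A549, 1 held with TRIM58-WT replicates 2 and 3 averaged, 2 with normexp and 0 with the methods' t-test; of 18 between the mock groups, 12 to 17 held with a replicate left out. In HCC827 the number of these genes called was 1, and 0 to 4 over the alternatives.

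The replicate block kept 1 member called in A549 (SPOCK1). Deviations from the group means correlated at 0.50, -0.42 and 0.50 for A549 samples with the same number and at 0.08 in HCC827. Such deviations sum to 0 within a group, and with 2 samples a group, as in HCC827, all pairs have the same size. These values therefore cannot tell whether samples with the same number were cultured or prepared together. With other numbers, A549 TRIM58-WT replicate 1 correlated at 0.41 with mock 2 and at -0.59 with mock 3, TRIM58-WT 2 at 0.57 with mock 3, and the other pairs at -0.48 to -0.31; TRIM58-WT 1 and mock 2 lay on slide 1, and TRIM58-WT 2 and 3 and mock 3 on slide 2. With slide as a block 1802 of all probes were called in A549, among them 1 member, SPOCK1. That fit took mock arrays 1-1 and 1-2 of the same control cell as separate samples. With the mock arrays separate and no block 1729 probes were called, against 1171 with arrays 1-1 and 1-2 averaged. The number of arrays limits the precision, and BGN, SDC2 and GPC4 lay at background.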
